A study of Mus musculus with 72 samples.

Results

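The 18 libraries described here compare the suprachiasmatic nucleus (SCN) of mice fed a tryptophan-free diet (-Trp) with that of mice fed a nitrogen-matched control diet (Ctrl) in the light phase of a 12-h light/dark cycle (LD). They are the 9 -Trp LD and 9 Ctrl LD libraries at zeitgeber time (ZT, hours after lights on) 0, 4 and 8, with 3 mice per diet and time point, out of 72 SCN libraries in all. The mice were male C57BL/6, 8 weeks old before acclimation, single housed for 1 week under the light schedule and then fed the diet for 2 weeks. The control diet was nitrogen-matched by the study's methods, while the series text speaks of chow. Each library comes from 1 mouse, so the spread between libraries is that between animals plus dissection and library making.

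The names of the deposited columns could not be taken at face value. For each of the 9 Ctrl libraries used here, values of at least 0.05 FPKM in the study's supplementary SCN table were compared with the deposited columns. The tolerance was 0.0001 of the value. For 1918 to 1939 genes the values were found at 100% equality in a deposited column of another name. In no other deposited column did more than 0.26% of these genes match. The matched column lay 12 places further on in the deposited order than the library did in the order of the supplementary table. The 9 libraries were placed by this match. No such match was made for the -Trp libraries, which were placed by carrying the same shift of 12 columns on, so their identity rests on the order of the columns. The night and constant darkness libraries compared below were placed likewise. There the Ctrl match rested on 1915 to 1925 genes in LD night and on 124 to 133 in the subjective day of constant darkness. The shift runs past the end of the order, so -Trp at circadian time 8 in constant darkness came from the first deposited columns. The result with the columns taken as named is given at the end.

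The sum of FPKM, fragments scaled to the length of the transcript and the mapped fragments of the library, was 403066 to 492024 in these 18 libraries. It was on average 1774 FPKM higher in -Trp, which is within the spread (exact two-sided permutation test with the diets exchanged within time points, 8000 arrangements, p = 0.852). The depth relative to the median library was recovered from the steps that single fragments make in low genes. It was 0.758 to 1.154 in Ctrl (median 0.946) and 0.932 to 1.152 in -Trp (median 1.063). The number of reads itself is not known, so no counting error is given. Levels are FPKM divided by a median-of-ratios factor (0.986 to 1.08 in these libraries) and are called normalised FPKM.

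Some markers of tissue and time matched the groups as placed, with limits, and they do not check the diet. Dbp, a clock-controlled transcription factor that rises through the day, went from 15.7 ± 1.85 at ZT0 to 34.5 ± 2.58 normalised FPKM at ZT8 on Ctrl (mean ± SD, n = 3) and from 18.6 ± 0.577 to 33.1 ± 4.81 on -Trp. Arntl, the clock activator also known as Bmal1, went over the same hours from 8.05 ± 0.252 to 6.57 ± 0.0575 on Ctrl and from 8.26 ± 1.38 to 6.61 ± 0.606 on -Trp. Per1 and Per2 had no such steady course on -Trp. At ZT0, ZT4 and ZT8 Per1 averaged 6.47, 8.00 and 8.30 on Ctrl and 8.78, 7.88 and 9.99 on -Trp. Per2 averaged 3.08, 3.20 and 3.37 on Ctrl and 3.43, 2.73 and 3.57 on -Trp. The vasoactive peptide gene Vip, a marker of the SCN core, was between 9.15 and 37.6, whereas Oxt, the oxytocin gene of neighbouring magnocellular neurons, was between 996 and 2269 normalised FPKM, so RNA of cells outside the SCN was in the samples. Hcrt and Pmch, which mark the lateral hypothalamus, ranged from 0.223 to 161 and from 0.864 to 252 normalised FPKM. The pituitary genes Gh and Prl stood at 632 and 110 normalised FPKM in 1 library, -Trp ZT4 replicate 2, against at most 65.4 and 13.4 in the other 17.

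Tryptophan is an essential amino acid, and beyond protein synthesis it is the precursor of serotonin, of kynurenine and of part of the cell's NAD. Scarcity of any essential amino acid is sensed through uncharged tRNA, the kinase GCN2 and the transcription factor ATF4, which raises amino acid transporters, synthetases and stress genes. The SCN is the central circadian pacemaker, in which CLOCK and BMAL1 drive the Per and Cry repressors through E-boxes. Serotonergic input from the raphe and circulating glucocorticoids are signals that reach it from outside.

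Among 14132 genes tested across the 3 time points together, 1 gene passed an adjusted p of 0.05 (0.00708% of the genes tested). It was Sult1a1, which encodes a cytosolic sulfotransferase of phenols and catecholamines, and it rose on the tryptophan-free diet. Without the adjustment, 771 genes were higher (5.46%) and 661 lower (4.68%) at p under 0.05. The differences were small throughout. The median 95% interval extended 0.15 on the log2 scale to either side of the estimate, the interval lay within 0.5 of 0 for 94.5% of the genes, and 92 genes differed by 0.5 or more.

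Sult1a1 (chr7:126672865-126676432, minus strand, GRCm38) had 6.38, 5.96 and 5.54 normalised FPKM in the 3 Ctrl libraries at ZT0 and 9.06, 9.96 and 12.1 in the 3 -Trp libraries. At ZT4 it had 5.16, 5.85 and 3.77 on Ctrl and 8.20, 10.6 and 8.34 on -Trp. At ZT8 it had 4.49, 4.13 and 3.04 on Ctrl and 8.16, 6.92 and 4.79 on -Trp. The 3 -Trp libraries lay above the 3 Ctrl libraries at each time point, while the level declined from ZT0 to ZT8 on both diets, so the 9 values of one diet overlapped the 9 of the other. The log2 difference was 0.75 ± 0.10 (SE; 95% interval 0.53 to 0.97), a 1.68-fold higher level, with an adjusted p of 0.0179 (limma). Leaving out the library with high Gh and Prl gave a log2 difference of 0.71 and an adjusted p of 0.0525, and the call held in 12 of the 18 repeats that each left out 1 library. In the 18 LD night libraries, which come from other mice, Sult1a1 was 4.46 to 8.65 on Ctrl and 8.57 to 18.7 on -Trp, a log2 difference of 1.16 ± 0.13 (adjusted p = 1.56e-05). In the 18 libraries of the subjective day in constant darkness (DD) it was 2.70 to 8.57 on Ctrl and 5.16 to 12.6 on -Trp, a log2 difference of 0.93 ± 0.17 (adjusted p = 0.00779). Night and DD effects, here and below, come from fits of 36 libraries that include the LD day, with 1 mean per group. Those fits called 4 (with night) and 5 (with DD) genes in the LD day itself. Passing there and not in the LD day is therefore no like comparison.

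Phyhd1, which encodes a 2-oxoglutarate-dependent dioxygenase, came next and just missed the threshold. It lay between 12.5 and 18.03 normalised FPKM on Ctrl (median 13.6) and between 16.4 and 29.7 on -Trp (median 21.1). The 3 -Trp libraries again exceeded the 3 Ctrl libraries at each of the 3 time points. The log2 difference was 0.56 ± 0.09 (95% interval 0.37 to 0.74, adjusted p = 0.0513). The same gene was raised by 0.59 ± 0.10 in LD night (adjusted p = 0.00285) and by 0.74 ± 0.09 in the DD subjective day (adjusted p = 3.80e-05), where the 9 -Trp libraries (20.2 to 31.2) lay above the 9 Ctrl libraries (12.5 to 16.2).

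**Figure D1:**
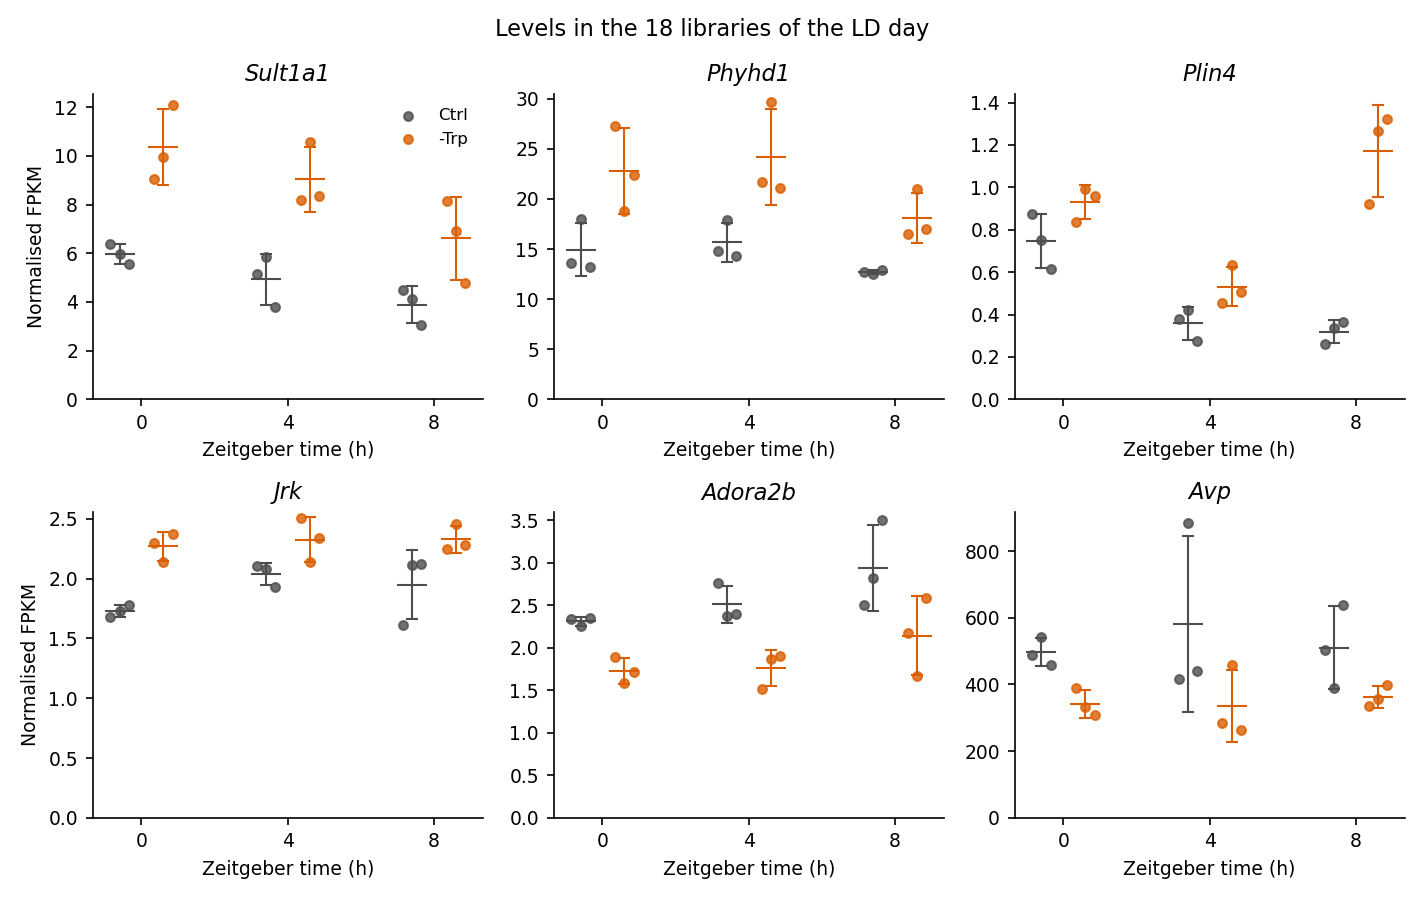
Level of 6 genes in each of the 18 libraries of the LD day (vertical axes, normalised FPKM from 0) against zeitgeber time in hours, with Ctrl in dark grey and -Trp in orange. Points are single mice and bars are the mean ± SD of 3. Sult1a1 and Phyhd1 were higher in every -Trp library than in every Ctrl library of the same time point, and Plin4 at ZT8 was 0.924 to 1.32 on -Trp against 0.259 to 0.363 on Ctrl.

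**Figure D2:**
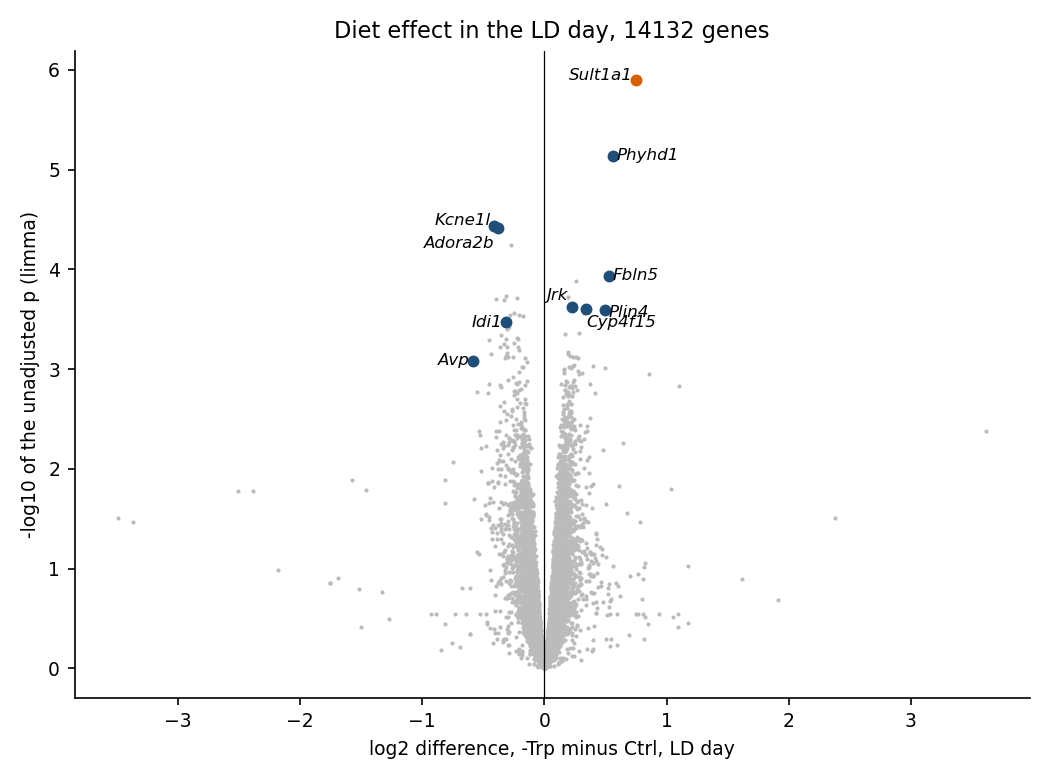
Each point is 1 of 14132 genes. The horizontal axis is the log2 difference in the LD day, -Trp minus Ctrl, and the vertical axis is −log10 of the unadjusted p of limma. Sult1a1, in orange, is the gene that passed the adjusted threshold, and the genes in blue are named in the text.

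The DNA before the starts of the 2 leading genes and of Fkbp5, whose diet effect differed between day and night, is shown so that the elements named in the background can be looked for. The windows are the 250 bases before the RefSeq transcription start (GRCm38.p6), written 5′ to 3′ on the gene's own strand, at chr7:126676419-126676668 for Sult1a1, chr2:30265953-30266202 for Phyhd1 (the first of its 3 RefSeq starts) and chr17:28486150-28486399 for Fkbp5. Capitals mark matches, on either strand, to the E-box CACGTG, the hexamer AGAACA of the glucocorticoid receptor element, the aryl hydrocarbon receptor core GCGTG and the C/EBP-ATF element TGATGNAA.
Sult1a1: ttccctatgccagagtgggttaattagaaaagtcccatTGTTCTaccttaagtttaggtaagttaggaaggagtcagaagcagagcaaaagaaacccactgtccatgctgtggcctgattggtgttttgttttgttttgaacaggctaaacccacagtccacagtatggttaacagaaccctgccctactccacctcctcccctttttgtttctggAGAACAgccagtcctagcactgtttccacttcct
Phyhd1: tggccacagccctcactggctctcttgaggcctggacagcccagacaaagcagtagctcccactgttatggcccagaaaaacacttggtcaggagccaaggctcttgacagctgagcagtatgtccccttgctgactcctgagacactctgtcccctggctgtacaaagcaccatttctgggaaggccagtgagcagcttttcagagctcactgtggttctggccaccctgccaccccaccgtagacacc
Fkbp5: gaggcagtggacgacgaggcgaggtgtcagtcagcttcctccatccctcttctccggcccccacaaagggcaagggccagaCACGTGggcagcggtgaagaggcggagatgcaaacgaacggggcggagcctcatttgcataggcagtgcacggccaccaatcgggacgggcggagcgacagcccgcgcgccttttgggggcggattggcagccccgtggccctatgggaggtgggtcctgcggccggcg
The Sult1a1 window held the hexamer AGAACA 2 times, 212 and 34 bases before the start. Of all 32851 windows of this length 16.1% held it at least once, and the share that held it 2 times was not counted. The Fkbp5 window held 1 E-box, 169 bases before the start, as did 6.02% of all windows. The Phyhd1 window held none of the 4 motifs. The aryl hydrocarbon receptor core, found in 28.2% of all windows, and the C/EBP-ATF element, found in 3.45%, were in none of the 3. These are matches of letters in a short window and were not tested against binding.

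Other genes at the top of the list in the upward direction did not pass the test, and their values are given as such. Jrk, which encodes a nuclear DNA-binding protein, was the one gene of 14132 (0.00708%) with all 9 -Trp libraries (2.14 to 2.51 normalised FPKM) above all 9 Ctrl libraries (1.61 to 2.12), with a log2 difference of 0.23 ± 0.05 (adjusted p = 0.199). Cyp4f15, a cytochrome P450 of lipid oxidation, had medians of 4.57 on Ctrl and 6.50 on -Trp with the groups apart at each time point, and a log2 difference of 0.34 ± 0.07 (adjusted p = 0.199). For this gene the difference passed the test of the larger fits in LD night (0.45 ± 0.07, adjusted p = 0.00193) and in the DD subjective day (0.45 ± 0.09, adjusted p = 0.0159). Fbln5, a protein of elastic fibres, had a log2 difference of 0.53 ± 0.11, and Ogdhl, a brain form of the oxoglutarate dehydrogenase subunit, one of 0.26 ± 0.05 (adjusted p = 0.199 for both). The neuronal genes Syt12, Cacng8, Ncam1 and Mast3 and the MAX-binding repressor Mnt had log2 differences between 0.17 (Ncam1) and 0.32 (Mast3). Groups apart in the same direction at all 3 time points occurred in 28 genes (0.198%), among them Sult1a1, Phyhd1, Jrk, Cyp4f15, Ogdhl, Syt12, Mast3 and Ncam1.

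In the downward direction no gene passed the test. Kcne1l, an accessory subunit of potassium channels, had 7.88 to 12.8 normalised FPKM on Ctrl and 5.37 to 8.26 on -Trp, a log2 difference of -0.41 ± 0.07 (adjusted p = 0.137). It was lower by a similar amount in LD night, where the difference of -0.39 ± 0.09 passed the test of the larger fit (adjusted p = 0.0286). Adora2b, the A2B receptor of adenosine, had 2.25 to 3.50 on Ctrl and 1.52 to 2.59 on -Trp, a log2 difference of -0.38 ± 0.07 (adjusted p = 0.137). Only Decr2, a peroxisomal reductase of unsaturated fatty acids named here after its values were seen, had all 9 -Trp libraries below all 9 Ctrl libraries (0.00708% of genes), with means of 12.96 ± 0.516 on -Trp and 14.5 ± 0.734 on Ctrl (normalised FPKM). The endothelin gene Edn3, the urea transporter Slc14a1, the lysine methyltransferase Smyd1, the tropomyosin Tpm4, the phosphorylase kinase subunit Phkg1, the sheddase Adam17 and the processed pseudogene Gm6623, whose reads cannot be told from those of its parent gene, completed the list with log2 differences between -0.40 (Edn3) and -0.18 (Adam17).

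Of 25 core clock genes tested, none passed the adjusted threshold, 3 were higher at an unadjusted p under 0.05 (background 5.46%), none was lower, and the 95% interval lay within 0.5 of 0 for 24. The 3 were the repressors Cry2 (log2 difference 0.17, 95% interval 0.06 to 0.27), Per1 (0.21, 0.06 to 0.36) and Nr1d1 (0.10, 0.00077 to 0.19). Per1 differed by 0.41 at ZT0, by -0.02 at ZT4 and by 0.25 at ZT8. Per2, Dbp and Arntl had log2 differences of 0.0019 (95% interval -0.16 to 0.16), 0.02 (-0.16 to 0.21) and 0.04 (-0.08 to 0.15). Timeless, a replication and clock-associated protein, had 0.659 ± 0.0884 on Ctrl and 0.571 ± 0.0810 normalised FPKM on -Trp, a log2 difference of -0.11 (95% interval -0.23 to 0.0045, adjusted p = 0.509).

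Of 15 SCN peptide and regional genes tested, none passed and 1, Avp, was lower at an unadjusted p under 0.05 (background 4.68%). Avp encodes arginine vasopressin, the peptide of the SCN shell and of magnocellular neurons. Its level was 390 to 884 normalised FPKM on Ctrl (median 487) and 262 to 459 on -Trp (median 335), and the highest Ctrl value, at ZT4, stood apart from the next, 638. The log2 difference was -0.58 ± 0.14 (95% interval -0.89 to -0.28, adjusted p = 0.220). Vip had a log2 difference of -0.28 with an interval of -0.79 to 0.24, too wide to place it. Among 27 feeding and neuroendocrine peptides and receptors none passed and 5 were lower at an unadjusted p under 0.05 (background 4.68%), including Hcrt (median 12.8 on Ctrl and 0.974 on -Trp) and Pmch (41.6 and 3.39). Within the Ctrl group alone Hcrt ran from 1.06 to 161 and Pmch from 2.10 to 252. Kiss1, the kisspeptin gene, had a log2 difference of -0.54 (adjusted p = 0.300), and the others were Mc4r (-0.23) and Ghrh (-0.25). Neurons that make these peptides lie outside the SCN, and the part of dissection in these differences was not tested.

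The response to missing amino acids was examined through lists drawn up for it. Like all lists here, they were chosen with earlier results of these data known, so their counts are no independent evidence of a direction. Of 22 ATF4 target and pathway genes tested, none passed, 4 were higher (Chac1, Ddit3, Ppp1r15a and Slc7a1) and 1 lower (Slc7a11) at an unadjusted p under 0.05 (background 5.46% higher and 4.68% lower), and all 22 intervals lay within 0.5 of 0. Asns, asparagine synthetase and a standard readout of ATF4, had 50.2 ± 4.61 normalised FPKM on Ctrl and 53.1 ± 4.10 on -Trp, a log2 difference of 0.08 (95% interval -0.02 to 0.19). Chac1, a glutathione-degrading enzyme, had the smallest p of the list with a log2 difference of 0.23 (adjusted p = 0.303), 0.47 at ZT0 and 0.02 at ZT8, and Slc7a11, the cystine transporter, had the lowest difference, -0.25. The median log2 difference was -0.0084 for the ATF4 list, -0.0040 for 22 serine and one-carbon enzymes, 0.06 for 20 aminoacyl-tRNA synthetases and 0.04 for 27 amino acid transporters, beside 0.0066 for all genes tested. Of the 20 synthetases 16 were above 0, and Aars, the alanyl-tRNA synthetase, was the member with the smallest p (0.17 ± 0.05, adjusted p = 0.302).

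The pathways that use tryptophan were little expressed or little changed. Of 19 genes of tryptophan metabolism 17 were in the tables and 7 passed the filter on low values. Tph2, the neuronal enzyme that begins serotonin synthesis, was at 0.160 to 0.829 normalised FPKM and Tdo2 and Kmo of the kynurenine pathway were at most 0.339 and 0.0534, so these were not tested. None of the 7 tested passed or had an unadjusted p under 0.05, and all 7 intervals lay within 0.5 of 0. Htr5b, a serotonin receptor, was lower (-0.32 ± 0.11, adjusted p = 0.364) among 12 genes of serotonin transport and reception. Of 22 genes of NAD synthesis and use none passed. Nmnat2 (0.14), a neuronal NAD-synthesizing enzyme, Nmrk1 (-0.22) and Nadsyn1 (-0.19) had an unadjusted p under 0.05 (background 5.46% higher and 4.68% lower). Of the aryl hydrocarbon receptor pathway, the receptor Ahr, its partner Arnt and the targets Nqo1 and Tiparp were tested, with log2 differences between -0.07 (Tiparp) and 0.05 (Ahr), while the targets Cyp1a1, Cyp1b1 and Ahrr were below the filter on low values and were not tested.

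The list of glucocorticoid-responsive genes held the called gene. This list was drawn up with earlier results of these data known, and Sult1a1 was on it, so its count is no independent evidence of a direction. Of 23 genes tested, 1 passed (Sult1a1), 6 were higher at an unadjusted p under 0.05 (background 5.46%) and none was lower (4.68%), and the median log2 difference was 0.04. The other 5 were the lipid droplet protein Plin4 (0.50 ± 0.11, adjusted p = 0.199), the kinase Sgk1 (0.34), the actin-associated protein Fam107a (0.29), the metallothionein Mt1 (0.24) and Per1. Fkbp5, a co-chaperone of the glucocorticoid receptor and a common readout of it, had 6.54 to 9.02 on Ctrl and 6.33 to 8.65 on -Trp, a log2 difference of -0.09 (95% interval -0.22 to 0.05). Of the 23, 16 were above 0 and 7 below.

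Of 26 genes of sterol synthesis and other SREBP targets none passed, 9 were lower at an unadjusted p under 0.05 (background 4.68%) and none was higher, 23 were below 0, and the median log2 difference was -0.11. Msmo1, the methylsterol monooxygenase, had 53.8 to 64.4 normalised FPKM on Ctrl and 40.7 to 53.8 on -Trp, with the groups apart at all 3 time points (log2 difference -0.28 ± 0.06, adjusted p = 0.199). Cyp51 (-0.21), Idi1 (-0.31), Sqle (-0.18), Tm7sf2 (-0.20), Nsdhl (-0.14), Lss (-0.15), Fdps (-0.12) and Fdft1 (-0.11) were the others. All 26 intervals lay within 0.5 of 0. Of 18 genes of fatty acid synthesis and binding none passed, and 12 were below 0 and 6 above. At an unadjusted p under 0.05, 1 was higher and 4 were lower (background 5.46% higher and 4.68% lower). Fabp7, the fatty acid binding protein of glial progenitors and astrocytes, had a median of 102 on Ctrl and 80.6 on -Trp (-0.29 ± 0.07, adjusted p = 0.212), and the highest difference was 0.19 in Acly, the ATP citrate lyase.

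Other lists of signalling and stress genes held no called gene. Of 18 immediate early genes, which follow light and neuronal activity, 13 were above 0. Btg2 alone had an unadjusted p under 0.05 (-0.13, background 4.68% lower). Cirbp, the cold-inducible RNA-binding protein, had 59.1 to 135 normalised FPKM on Ctrl and 65.4 to 151 on -Trp (0.25 ± 0.08, adjusted p = 0.313), and the kinase Clk1 had a log2 difference of -0.25 ± 0.17. Of 20 heat shock and endoplasmic reticulum chaperone genes 17 were below 0 with a median of -0.07, beside 0.0066 for all genes tested. Manf (-0.17) and Hspa5 (-0.12) had an unadjusted p under 0.05 (background 4.68% lower). Of 13 interferon response genes 12 were below 0 with a median of -0.10. Among them 1, B2m, the light chain of MHC class I, had an unadjusted p under 0.05 (background 4.68% lower). Its difference was -0.17 ± 0.06 (limma, adjusted p = 0.302). Hr, a corepressor induced by thyroid hormone, had a log2 difference of 0.30 ± 0.09 (adjusted p = 0.302) in a list of 9.

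**Figure D3:**
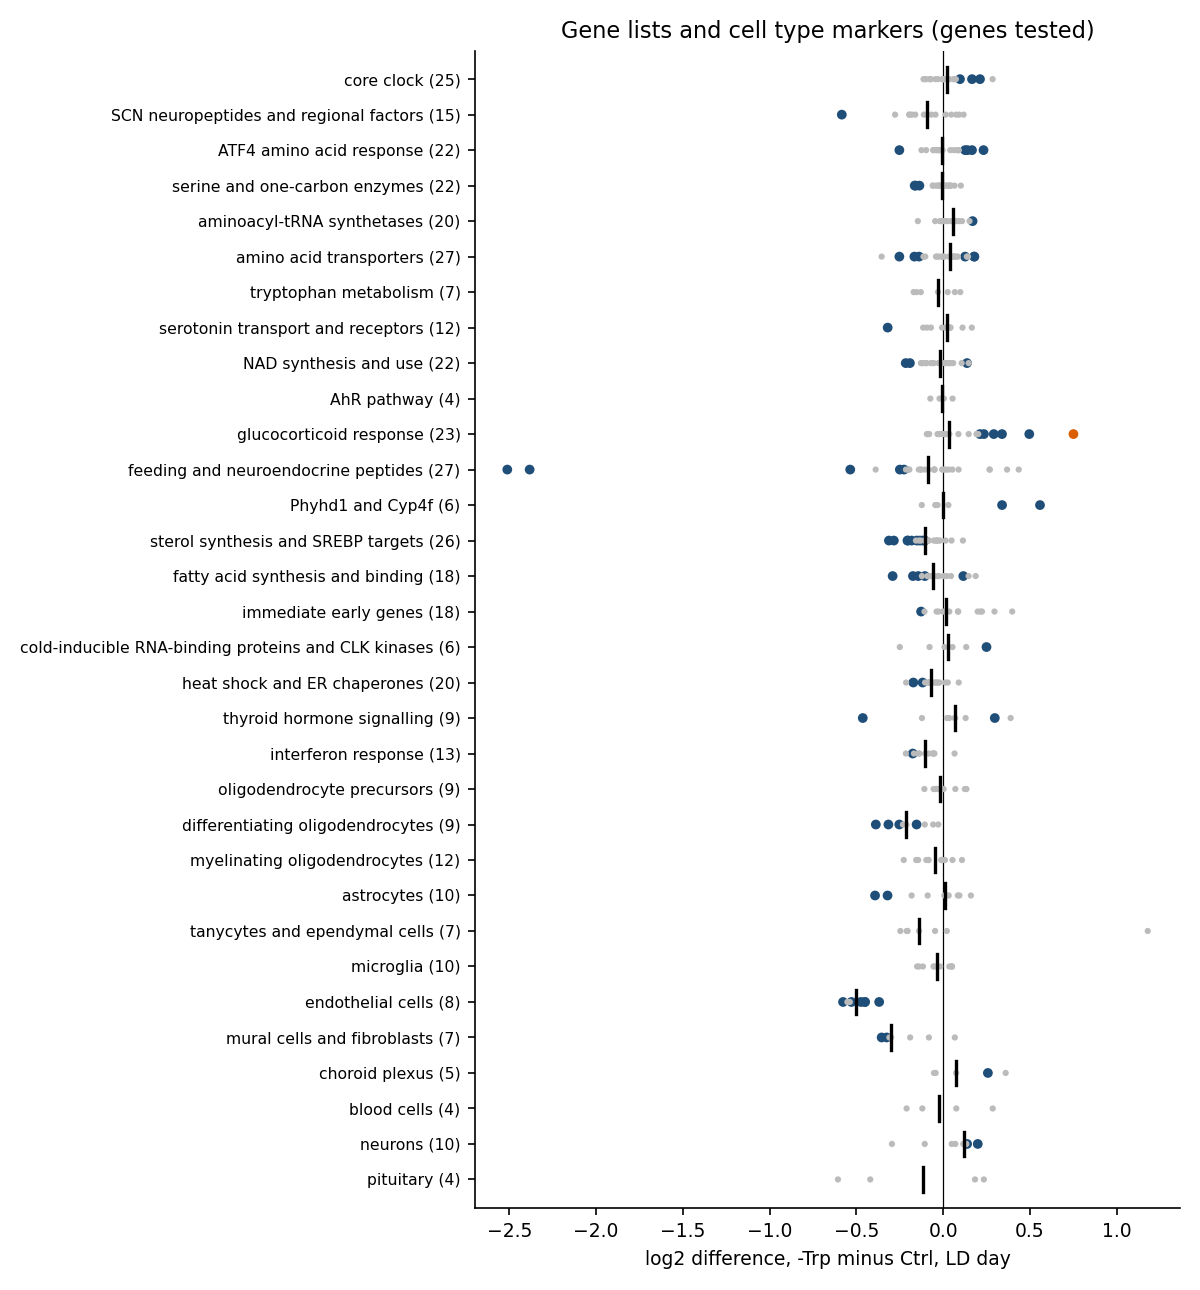
Log2 difference in the LD day, -Trp minus Ctrl, of each tested gene in 32 lists of pathways and cell type markers. The number tested is in parentheses, black bars are list medians, large blue points have an unadjusted p under 0.05, the orange point is Sult1a1, and grey points are the rest. The 8 endothelial markers and the 9 markers of differentiating oligodendrocytes lie below 0, and the list of ATF4 genes is centred near 0.

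No cell type marker passed the test. In whole tissue fewer cells of a type and less RNA per cell cannot be told apart. All 8 endothelial markers were below 0, 6 of them at an unadjusted p under 0.05 (background 4.68% lower), with a median log2 difference of -0.50, and a smallest adjusted p of 0.302 (Abcb1a). Their summed level was 28.8 to 110 normalised FPKM on Ctrl (median 69.1) and 32.2 to 91.9 on -Trp (median 40.5), and no marker was at 0 in a library. Slco1c1, a thyroid hormone transporter of brain vessels and astrocytes, was below 0 as they were (-0.46 ± 0.13, adjusted p = 0.228), and the part of vessel content in any result was not tested. The tight junction gene Cldn5 ran from 4.04 to 30.8 on Ctrl (median 16.5) and from 5.73 to 24.2 on -Trp (median 8.72).

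All 9 markers of differentiating oligodendrocytes were below 0 (median -0.21), and 4 had an unadjusted p under 0.05 (background 4.68% lower). They were Gpr17, a receptor that marks newly formed oligodendrocytes (-0.32 ± 0.08, adjusted p = 0.212), the ligand Bmp4 (-0.39), Bcas1 (-0.25) and Rras2 (-0.15). The medians were -0.02 for 9 precursor markers and -0.05 for 12 markers of myelin, and neither list had a member with an unadjusted p under 0.05. Gpr17 was also lower in the DD subjective day, where the test of the larger fit was passed (-0.53 ± 0.07, adjusted p = 7.16e-05). In LD night it had a difference of -0.20 ± 0.07 (adjusted p = 0.300). Microglial markers had a median of -0.03, blood genes of -0.02 and neuronal markers of 0.12. The astrocyte genes Aqp4 (-0.39) and S100b (-0.32) were lower at an unadjusted p under 0.05 while the median of the 10 astrocyte markers was 0.01. The 7 mural and fibroblast markers had a median of -0.30, the 7 tanycyte and ependymal markers of -0.14, the 5 choroid plexus markers of 0.07 and the 4 pituitary markers of -0.12, with no call in any of these lists.

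The time points were then taken one at a time, and the difference between the diets did not detectably vary among them. The interaction of diet and time called 0 genes by limma, with 372 (2.63%) at an unadjusted p under 0.05. At ZT0 0 genes were called (811, 5.74%, unadjusted) and at ZT4 0 genes (439, 3.11%). Sln, sarcolipin, a regulator of the muscle calcium pump, had the smallest interaction p. It was 0.210 to 0.306 on Ctrl and 1.22 to 3.39 normalised FPKM on -Trp at ZT0, and overlapped between the diets at ZT8. Actb, beta-actin, had a log2 difference of 0.40 at ZT0 and -0.02 at ZT4. Some leading entries at single time points were rows of Fam205a2, a symbol that several rows share, and the small nucleolar RNA Snora16a, listed at 0 in 8 of the 9 Ctrl libraries. They are not read further. Pet100, an assembly factor of cytochrome oxidase, had a log2 difference of -0.60 at ZT8, and the unnamed transcript 2810468N07Rik one of 0.44 at ZT0 and -0.36 at ZT8.

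At ZT8 1 gene was called (0.00708%, with 749, 5.30%, at an unadjusted p under 0.05). Plin4, a coat protein of lipid droplets, had 0.259, 0.336 and 0.363 normalised FPKM on Ctrl and 0.924, 1.27 and 1.32 on -Trp, a log2 difference of 1.02 (adjusted p = 0.00203). At ZT0 the values were 0.872, 0.754 and 0.614 on Ctrl against 0.839, 0.994 and 0.960 on -Trp, which overlap. At ZT4 they were 0.380, 0.421 and 0.273 against 0.455, 0.633 and 0.504. The interaction for this gene did not pass, so its rise at ZT8 is not shown to differ from that at ZT0 and ZT4. Because the pseudocount of 0.5 is close to these levels, the log2 differences understate the change. Relative depth at ZT8 was 0.758, 0.946 and 0.892 in the Ctrl libraries and 0.932, 1.072 and 0.970 in the -Trp libraries. The part of depth in this call was not tested.

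Whether the effect of the diet was the same by day and by night was tested on the difference itself, in the 36 LD libraries. Of 14140 genes 2 (0.0141%) had a different diet effect, with 771 (5.45%) at an unadjusted p under 0.05. In both the difference was above 0 at night and below 0 by day. Fkbp5 had a log2 difference of -0.09 by day and of 0.58 ± 0.08 at night, and the day effect minus the night effect was -0.67 ± 0.11 (95% interval -0.91 to -0.44, adjusted p = 0.0319). At ZT12 it had 9.84, 8.84 and 9.31 normalised FPKM on Ctrl and 15.3, 14.6 and 14.97 on -Trp, against 7.24, 7.25 and 8.77 and 8.32, 8.65 and 8.29 at ZT8. The diets overlapped at ZT8 and were apart at ZT12. Over the whole LD night Fkbp5 had 7.21 to 10.5 on Ctrl and 7.92 to 15.7 on -Trp, which overlap. Plin4 and Sgk1 had night differences of 1.15 ± 0.14 and 0.96 ± 0.16. For both genes the day effect minus the night effect did not pass (limma, adjusted p = 0.562 and 0.750). This does not show that their day and night effects were equal.

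P4ha1, a subunit of the enzyme that hydroxylates proline in collagen, was the second gene. At ZT0 it had 11.1, 12.5 and 12.1 normalised FPKM on Ctrl and 8.38, 10.1 and 9.75 on -Trp, so it was lower at lights on. At ZT4 (8.35 to 9.32 on Ctrl, 7.36 to 8.02 on -Trp) it was lower too, and at ZT8 the diets overlapped. At ZT20 it had 12.1, 9.83 and 9.83 on Ctrl and 13.5, 15.8 and 13.3 on -Trp. Over the whole LD night it had 7.37 to 12.7 on Ctrl and 8.22 to 15.8 on -Trp, which overlap. The day difference was -0.17 ± 0.05, that at night 0.20 ± 0.05, and the day effect minus the night effect -0.37 ± 0.07 (adjusted p = 0.0319). The calls depended on single libraries. Fkbp5 passed in 17 of 36 repeats that each left out 1 library (highest adjusted p 0.0847) and P4ha1 in 12 (0.0869). For Sult1a1 and Phyhd1 the difference between day and night did not pass (adjusted p = 0.861 and 1), with intervals of -0.78 to -0.04 and -0.33 to 0.26.

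The same test against the subjective day in DD called more genes. Of 14381 genes 233 (1.62%) had a different diet effect, 137 of them higher (0.953%) and 96 lower (0.668%) in the LD day than in the DD day, and 2903 (20.2%) had an unadjusted p under 0.05. In 232 of the 233 the 2 effects had opposite signs, which selection on their difference favours where both are small. The share over all genes is not given, so no reversal of the diet effect is read from this count. The effects were small on both sides, and by this fit 90 genes differed between the diets in the DD day and 5 in the LD day. The count depended on single libraries, from 1 without Ctrl DD CT8 replicate 1 to 607 without Ctrl DD CT0 replicate 1, and with FPKM as deposited it was 82, of which 10 were higher and 72 lower. The sum of FPKM was at least 403066 in the LD day libraries and 317417 to 344865 in the DD day libraries, with 1 -Trp library at CT4 at 411944. The part of this property in the difference was not tested.

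Zbed5, a gene derived from a DNA transposase, led that comparison. It had 18.5 to 26.6 normalised FPKM on Ctrl and 16.1 to 19.8 on -Trp in the LD day, and 9.06 to 12.1 on Ctrl and 11.4 to 16.6 on -Trp in the DD day. The effects were -0.30 ± 0.07 and 0.32 ± 0.07, a difference of -0.61 ± 0.10 (adjusted p = 0.0166) that passed in all 36 repeats without 1 library. Jrk (0.23 in LD, -0.08 in DD, adjusted p of the difference 0.0260), Ogdhl (0.26 and -0.10, 0.0260) and Ncam1 (0.17 and -0.20, 0.0368) went the other way. E030024N20Rik, a processed pseudogene, and Fam133b, which has no settled function, were among the 3 with the smallest p. Their differences were -0.66 and -0.41 (limma, adjusted p = 0.0239 for both). E030024N20Rik was low, with Ctrl medians of 1.03 normalised FPKM in the LD day and 0.431 in the DD day. Its highest Ctrl value in the LD day, 2.08, stood apart from the others (0.813 to 1.20). Of 20 chaperone genes tested in the LD day, 3 were among the 233, which are 1.62% of all genes tested in that comparison. Hspa5, the main chaperone of the endoplasmic reticulum, had effects of -0.12 and 0.20 (adjusted p = 0.0446), and Manf, a secreted protein induced with it, effects of -0.17 and 0.25 (0.0416). Sult1a1, Phyhd1, Plin4 and Cyp4f15 had the same sign in both light schedules, and their differences did not pass (adjusted p = 0.717, 0.407, 0.632 and 0.662).

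With the columns taken as named, the comparison gave a different picture. Of 14482 genes 10002 (69.1%) were called, 4796 higher (33.1%) and 5206 lower (35.9%) in the columns named -Trp. The median size was 0.51 on the log2 scale, and Sult1a1 was lower in those columns by 1.28 ± 0.23 (limma, adjusted p = 0.000114). By the match of values, the columns named -Trp are Ctrl in DD at CT8, CT12 and CT16. The columns named Ctrl are, by the carried shift, -Trp in LD at ZT8, ZT12 and ZT16. In that placement the comparison has the diets reversed and the light schedules mixed in, so it is no diet effect. Under those names all 9 Ctrl libraries have a sum of FPKM of 434255 or more and all 9 -Trp libraries one of 319668 to 347508, so that diet and the level of this sum cannot be told apart. With the columns placed by the supplementary table both diets lie in the upper range.

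**Figure D4:**
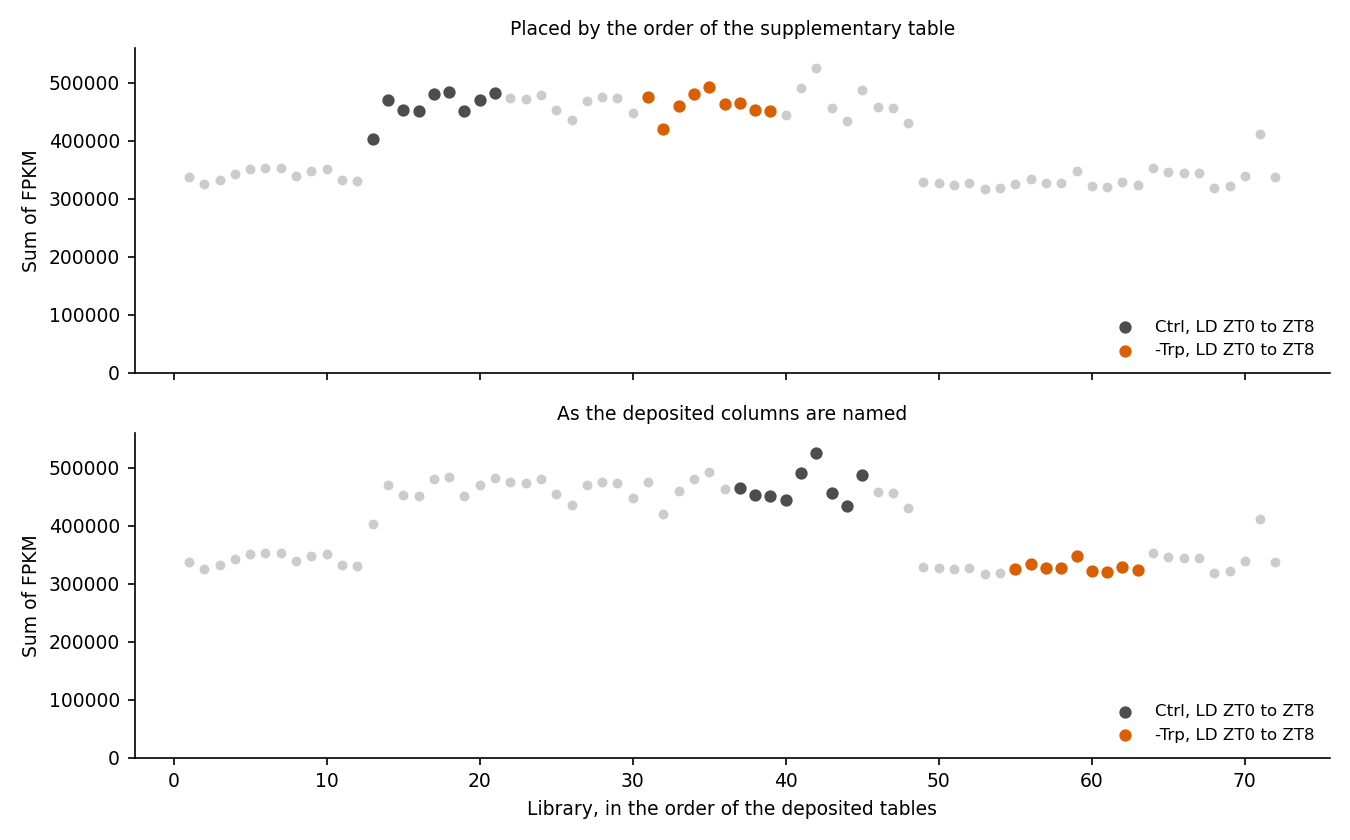
Sum of FPKM of each of the 72 libraries (vertical axes, FPKM from 0) in the order of the deposited tables. The libraries compared are in dark grey (Ctrl) and orange (-Trp) and the others in light grey, placed by the order of the supplementary table (upper panel) or by the deposited names (lower panel). In the upper panel the 2 diets share a range of 403066 to 492024, and in the lower panel they do not overlap.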

How the data were processed

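RNA from single SCN samples was sequenced as stranded mRNA libraries. Per the labels' processing notes and the study's methods, the authors trimmed reads with Trimmomatic, used TopHat for alignment to mm10 and Cufflinks for the FPKM of each gene. The deposited tables hold these FPKM values (24883 rows, 72 libraries), and versions, annotation and further scaling are not given in the sources used here. Columns were placed by their order in the supplementary SCN table.

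FPKM were divided by median-of-ratios factors over the 72 libraries and analysed as log2(FPKM + 0.5), keeping genes whose mean over the tested libraries was 0.5 FPKM or higher, in limma 3.58.1 (R 4.3.3) with time as a factor, Benjamini-Hochberg adjustment over all genes and a threshold of 0.05. Fold changes are on that scale and understate those of low genes. Differences from LD night and the DD subjective day were contrasts in fits with 1 mean per group. Relative depth was recovered from 9715 low genes. The scripts were tested on simulated data. Positions are from GENCODE M21 (GRCm38), in which 73 of 75 named genes were found, promoters from RefSeq (GRCm38.p6), and figures were drawn with matplotlib 3.10.9.

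The members, the gene lists and the tests were chosen with earlier results of these data known. Named are the 12 genes with the smallest p in each direction, 7 checks of time and tissue, the 3 with the smallest p in each other comparison and the 2 of each pathway list. Alternatives were pseudocounts of 0.1 and 1, FPKM as deposited, scaling over the tested libraries, no filter, a mean of at least 1 FPKM, the replicate block, 1 fit for all libraries, each library left out and, chosen after seeing the data, a mean-variance trend.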

Additional observations from a re-analysis of the deposited data

Results flagged for a closer look

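In 152 sets of 9 libraries of 1 diet, 15 had a library that stood apart by Dixon's criterion at 95%, which chance alone exceeds in about 1 set of 20. All values are normalised FPKM. In Ctrl the library was Mnt at ZT4 (8.31, the others 6.43 to 7.22), Kcne1l (12.8, 7.88 to 10.2) and Adora2b (3.50, 2.25 to 2.82) in the same ZT8 replicate 3, Avp at ZT4 (884, 390 to 638), Snora16a (19.8, the others at 0) and E030024N20Rik (2.08, 0.813 to 1.20) at ZT8 replicate 1, and Ahr at ZT0 (0.809, 0.455 to 0.603). In -Trp it was Ogdhl at ZT4 (57.9, 43.2 to 46.9), Smyd1 at ZT0 replicate 3 (3.51, 2.25 to 2.77), Snora16a at ZT4 replicate 2 (55.8, 0 to 25.9), and at ZT0 replicate 2 Mast3 (24.1, 15.3 to 17.8), Arntl (9.82, 6.09 to 7.77), Sln (3.39, 0.549 to 1.67) and Fam205a2.row2 (0, 1.47 to 2.13). The pituitary markers summed to 775 in -Trp ZT4 replicate 2 and to 0.950 to 12.7 in the other 8.

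The diet effect in the LD day differed from that in LD night in 2 genes, Fkbp5 (-0.67 on the log2 scale) and P4ha1 (-0.37). It differed from that in the DD subjective day in 233 genes. Among the named genes these were Zbed5 (-0.61), E030024N20Rik (-0.66), Fam133b (-0.41), Tpm4 (-0.33), Gm6623 (-0.32), Manf (-0.42) and Hspa5 (-0.32), lower in the LD day, and Jrk (0.31), Ogdhl (0.37), Ncam1 (0.36) and Slc6a17 (0.43), higher.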

How the results depend on the processing

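Sult1a1 kept its direction in every alternative and every repeat without 1 library (log2 difference 0.70 to 0.81). It passed in 7 of 9 alternatives (adjusted p 0.00852 to 0.136) and in 12 of 18 repeats (0.00228 to 0.0651). The count of the diet effect was 2 with a pseudocount of 1, a mean of at least 1 FPKM, the replicate block or the mean-variance trend, where Phyhd1 was the second gene, 0 without the filter and 14 in 1 fit for all 72 libraries, which called Phyhd1 and not Sult1a1. Leaving out each library gave 0 to 6, with 6 without Ctrl LD ZT8 replicate 1 and 0 without any one of Ctrl LD ZT0 replicate 3, Ctrl LD ZT4 replicate 1, Ctrl LD ZT8 replicate 3, -Trp LD ZT4 replicate 2, -Trp LD ZT8 replicate 1 and -Trp LD ZT8 replicate 2.

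The interaction, ZT0 and ZT4 counts were 0 in all 9 alternatives and 0 to 1 without 1 library. The ZT8 count was 0 with a mean of at least 1 FPKM, where Plin4 is not tested, and in 1 fit for all 72 libraries, and 1 to 2 without 1 library. The difference from LD night was 1 with FPKM as deposited, 0 in 1 fit for all 72 libraries and 0 to 4 without 1 library. The difference from the DD subjective day was 82 with FPKM as deposited (10 higher and 72 lower, against 137 and 96), 95 with the replicate block and 1 to 607 without 1 library. The scaling moved the median over all genes of that difference from -0.0089 to -0.03. With the columns as named, FPKM as deposited gave 10098 and the replicate block 9995. The difference in the sum of FPKM was -5358 to 7033 without 1 library (p 0.597 to 0.996).

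Per2 and 2810468N07Rik, near 0 throughout, changed sign with FPKM as deposited (-0.0077 and -8.34e-05), and Per2 with scaling over the libraries tested (-0.0021). Without 1 library Per2 ran from -0.032 to 0.050, Dbp from -0.020 to 0.077 and 2810468N07Rik from -0.032 to 0.061. Same-numbered libraries of the 2 diets did not deviate together (r -0.354 to 0.177 over 9 pairs, 2 above 0.1), so the replicate numbers do not pair them.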

Other observations

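Further genes named by the rule, none of which passed the test of the diet effect in the LD day, had the following log2 differences in it. Of the 2 glycine cleavage and serine enzymes with the smallest p, Gcsh had a log2 difference of -0.16 and Psph one of -0.14. The neutral amino acid carriers Slc6a17 and Slc38a3 had differences of 0.18 and -0.14, and the serotonin receptor Htr1a one of 0.16 ± 0.11. Maoa and Ddc, enzymes of amine breakdown and synthesis, had differences of -0.13 and -0.17 with intervals that include 0. The desaturase Fads1 had a difference of -0.11, the early gene Junb one of 0.20 ± 0.14, Irf9 one of -0.14 and the synthetase Vars one of 0.15.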
